A study of Homo sapiens with 6 samples.

Results

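The genes described here encode the proteasome: its core and regulatory particles, the interferon-inducible subunits, its activators and inhibitor, and the chaperones that assemble it. Members were the protein-coding genes whose symbol consists of PSMA, PSMB, PSMC, PSMD, PSME, PSMF or PSMG followed by a number, which gave 48 of the 60605 genes in the count table. The RNA came from HuCCT-1, an established human cell line derived from cholangiocarcinoma, a cancer of the bile duct. The treated group (JNJ) was exposed for 4 days to 6 nM of JNJ-64619178, a compound that blocks PRMT5, an enzyme that methylates arginines in proteins. The control group received an equal volume of DMSO, the solvent. Both groups were cultured alike in serum-containing medium with antibiotics, and polyadenylated RNA was sequenced from 3 libraries per group with a stranded kit. The comparison asks how proteasome transcripts differed between inhibitor and solvent in 1 cell line, at 1 dose and 1 time.

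The proteasome degrades proteins that carry chains of ubiquitin. Its core is a barrel of stacked rings: outer rings of alpha subunits gate the entrance, and inner rings of beta subunits hold the proteolytic sites. A regulatory particle caps the barrel, and its ring of ATPases unfolds substrates while the non-ATPase subunits bind ubiquitin chains, remove them and hold the cap together. Interferon induces alternative catalytic subunits, which form the immunoproteasome, and the activator PA28; both shape the peptides presented on MHC class I molecules. Cells that are short of proteasome activity raise the transcription of nearly all subunit genes together through the factor NRF1, encoded by NFE2L1.

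With the PRMT5 inhibitor, proteasome transcripts moved in both directions and their sum hardly differed from the control. The largest rises were in PSMD6, a non-ATPase subunit of the regulatory particle (1.71-fold), and PSMB1, a structural beta subunit (1.56-fold). The largest falls were in PSMA2, an alpha subunit (1.52-fold), and PSMG4, an assembly chaperone (1.40-fold). All coding bases of PSMA2 are annotated in another gene as well, which limits its value, as set out below. None of the catalytic subunits, constitutive or immune, and none of the activators passed the test in either direction.

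Of the 48 members, 46 had enough counts to be tested. PSMA8, an alpha subunit of the testis, and PSMB11, a catalytic subunit of the thymus, had 0 counts in all 6 libraries, where 3 counts would correspond to between 0.0964 and 0.127 CPM (read counts relative to the size of the library, scaled by TMM). Levels below are CPM unless another scale is named, errors are SD over n = 3 libraries, and a gene rose or fell where its adjusted p from edgeR's quasi-likelihood test was below 0.05. Whether the 3 libraries per group stem from independent cultures is not stated in the labels, and the p-values therefore reflect only the spread between these libraries, which may be technical. In bulk RNA, fewer cells of a type and less RNA per cell cannot be told apart.

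Among the tested members 7 rose, 10 fell and 29 did not pass the test. This is 15.2% higher and 21.7% lower, beside 20.0% higher and 17.1% lower over all 17371 genes tested. Protein-coding genes gave 24.0% higher and 16.8% lower. The median log2 fold change (JNJ over DMSO) of the tested members was -0.002, beside 0.001 over all genes tested. The median size of the log2 change, regardless of sign, was 0.109 for the members, beside 0.206 over all genes and 0.178 over protein-coding genes. A change of at least 1.5-fold that passed the test occurred in 2 members upward and 1 downward, beside 5.9% and 4.44% of all genes. The JNJ libraries lay all above the DMSO libraries for 10 members and all below for 13, where 24.7% and 22.2% of all genes did so. With upper-quartile scaling in place of TMM the split was 4 higher and 15 lower. That scaling shifted all genes by -0.0586 in log2, which is more than several of the positive medians given below.

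**Figure D1:**
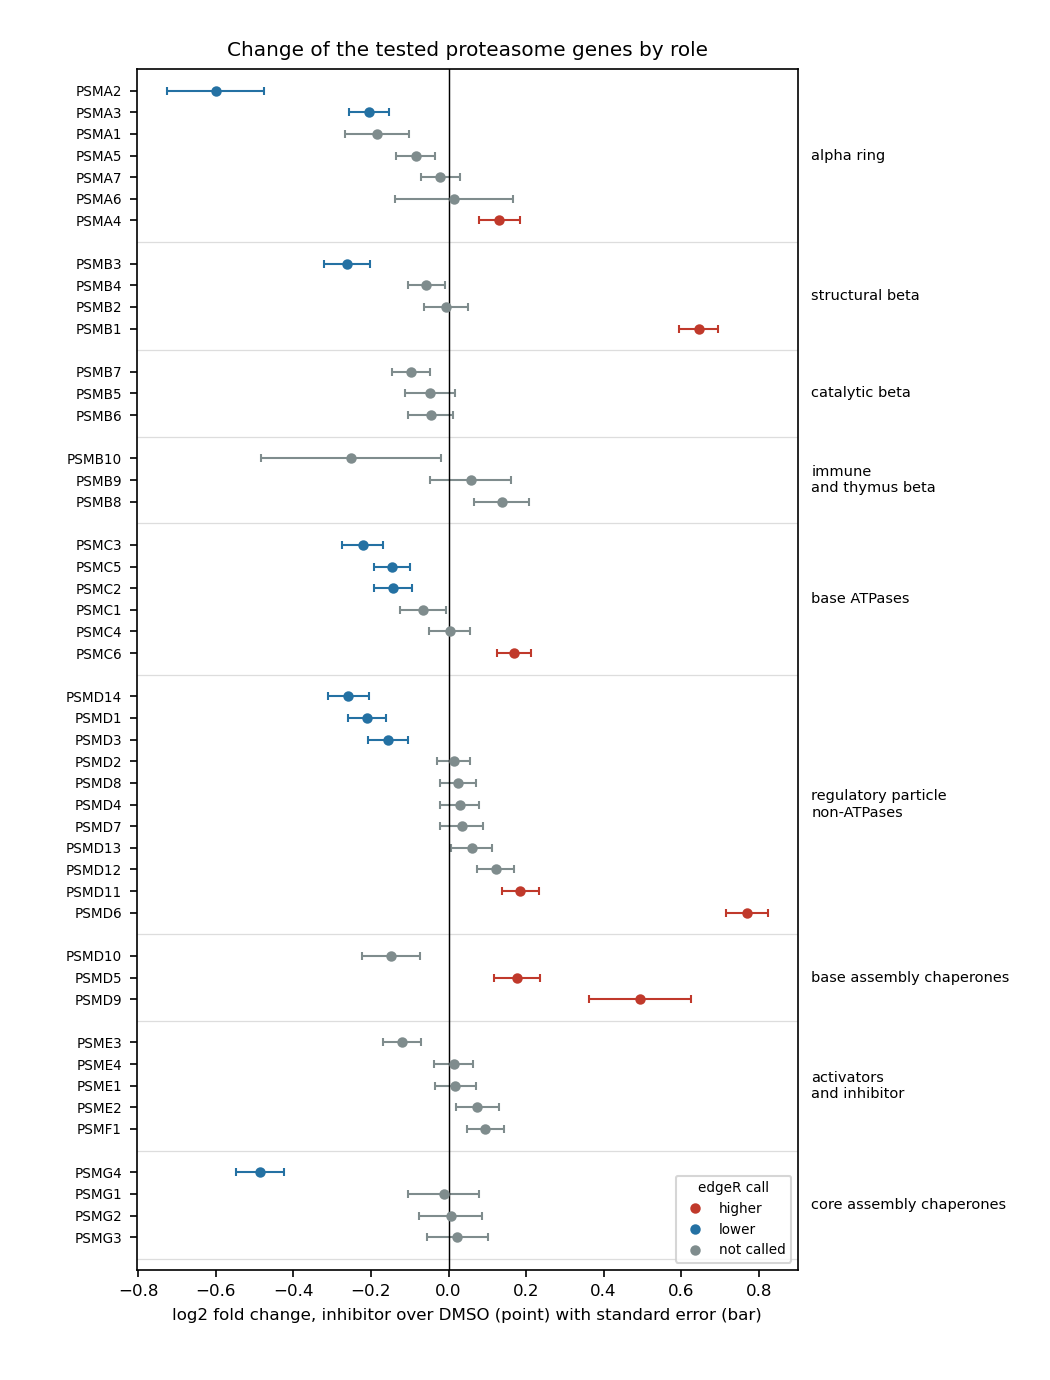
Log2 fold change of each tested proteasome gene, JNJ over DMSO, with its standard error, grouped by role; red marks genes that rose and blue genes that fell in edgeR's test, and grey those that did not pass it. PSMD6 and PSMB1 stand farthest to the right and PSMA2 and PSMG4 farthest to the left, while most of the 46 genes lie near 0.

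The summed level of all members was 3072, 3086 and 3093 CPM with DMSO and 2993, 3127 and 3121 CPM with the inhibitor. The JNJ libraries lay on both sides of the DMSO libraries, and their mean was 99.9% of the DMSO mean. The members held between 0.303% and 0.317% of the counts of each library.

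Total counts ranged from 28133746 to 30691914 in the DMSO libraries and from 23931991 to 28224911 in the JNJ libraries. The tested member with the fewest counts was PSMB10, with 31 to 54 per library. Mitochondrial genes took 17.8% to 20.6% of counts with DMSO and 16.8% to 18.9% with the inhibitor, ranges that overlap. All 7 markers of biliary and simple epithelium (KRT7, KRT19, KRT8, KRT18, EPCAM, SOX9 and CDH1) were present, with summed levels of 5632 to 5905 CPM in DMSO and 4556 to 4824 CPM in JNJ libraries. The 5 fibroblast markers summed to 32.8 to 38.2 CPM with DMSO and 61.2 to 63.6 CPM with the inhibitor; COL1A1 gave nearly all of this, and PDGFRA, PDGFRB, DCN and LUM each stayed below 1 CPM on average in both groups. The 6 leukocyte markers summed to 2.14 to 2.96 CPM and 3.38 to 3.73 CPM respectively, mostly from CD14, with PTPRC at 0 in DMSO libraries. Hepatocyte and endothelial markers summed to at most 1.12 CPM in any library. The labels name no batch.

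The alpha ring had 7 tested members: PSMA4 rose, PSMA2 and PSMA3 fell, and the median log2 fold change was -0.085. That is 14.3% higher and 28.6% lower, beside 20.0% and 17.1% of all genes tested. PSMA2 (chr7:42916857-42932223, minus strand, GRCh38) measured 7.10, 7.06 and 6.26 CPM in the DMSO libraries and 4.39, 4.41 and 4.66 CPM in the JNJ libraries. All JNJ libraries lay below all DMSO libraries, and the mean went from 6.81 ± 0.474 to 4.49 ± 0.151 CPM (log2 change of -0.60 with SE 0.13, edgeR adjusted p = 0.000524). PSMA3 measured 102, 104 and 94.6 CPM in the DMSO libraries and 82.5, 90.8 and 87.6 CPM in the JNJ libraries. It fell by less, with no overlap between the groups (log2 change of -0.21 with SE 0.05, edgeR adjusted p = 0.00246). PSMA4 went from 51.2 ± 2.12 to 56.1 ± 0.887 CPM and stood at the threshold (log2 change of 0.13 with SE 0.05, edgeR adjusted p = 0.0499); it lost its call in 11 of 14 other settings, where its adjusted p ranged from 0.0441 to 0.286 and which included leaving out any DMSO library (adjusted p = 0.259, 0.0995 and 0.0722 without replicates 1, 2 and 3) and JNJ replicates 1 and 3 (adjusted p = 0.0731 and 0.147). PSMA1 lay all below DMSO without passing the test (log2 fold change -0.18, adjusted p = 0.0799), and PSMA5, PSMA6 and PSMA7 had log2 fold changes of -0.08, 0.01 and -0.02. PSMA1 and PSMA5 passed it with upper-quartile scaling. Each barrel holds equal numbers of the ring's members, and their transcripts had calls in both directions. The only rise, in PSMA4, was lost in most settings, and the fall of PSMA2 rests on an unknown share of its reads, as set out below. The sum over the alpha genes was 94.8% of the DMSO level.

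Among the structural beta subunits, which have no proteolytic site, PSMB1 rose and PSMB3 fell. PSMB1 (chr6:170535117-170553341, minus strand, GRCh38) measured 58.3, 58.9 and 59.8 CPM in the DMSO libraries and 86.8, 97.0 and 92.9 CPM in the JNJ libraries. The lowest JNJ library lay far above the highest DMSO library, and the mean rose from 59.0 ± 0.768 to 92.3 ± 5.13 CPM (log2 change of 0.65 with SE 0.05, edgeR adjusted p = 3.67e-10). PSMB3 measured 59.8, 54.0 and 58.9 CPM in the DMSO libraries and 44.0, 50.6 and 49.5 CPM in the JNJ libraries. The groups did not overlap here either, though JNJ replicate 1 lay well below the other two JNJ libraries (log2 change of -0.26 with SE 0.06, edgeR adjusted p = 0.00104). PSMB2 and PSMB4 had log2 fold changes of -0.006 and -0.06, with adjusted p = 0.949 and 0.382.

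The catalytic subunits of the constitutive core are PSMB5 (chymotrypsin-like), PSMB6 (caspase-like) and PSMB7 (trypsin-like). PSMB5 measured 30.3, 30.9 and 34.7 CPM in the DMSO libraries and 30.3, 32.1 and 30.3 CPM in the JNJ libraries. PSMB6 measured 47.9, 51.5 and 51.5 CPM in the DMSO libraries and 44.8, 49.8 and 51.6 CPM in the JNJ libraries. The groups overlapped for both, with log2 fold changes of -0.05 (SE 0.06, adjusted p = 0.609) and -0.05 (SE 0.06, adjusted p = 0.579). PSMB7 measured 62.3, 63.0 and 63.5 CPM in the DMSO libraries and 57.8, 59.0 and 59.7 CPM in the JNJ libraries. Its JNJ libraries all lay below the DMSO libraries, by a margin that did not pass the test (log2 change of -0.10 with SE 0.05, edgeR adjusted p = 0.127); with upper-quartile scaling it did (adjusted p = 0.014, within a range of 0.014 to 0.241 over the 14 settings).

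The interferon-inducible partners that replace them are PSMB8, PSMB9 and PSMB10. PSMB8 measured 18.0, 19.2 and 19.9 CPM in the DMSO libraries and 20.7, 21.1 and 21.0 CPM in the JNJ libraries. Its JNJ libraries lay close together and all above the DMSO libraries, yet the difference did not pass the test (log2 change of 0.14 with SE 0.07, edgeR adjusted p = 0.135). PSMB9, which lies beside PSMB8 in the MHC region on the opposite strand, measured 8.85, 10.6 and 9.41 CPM in the DMSO libraries and 10.7, 8.96 and 10.4 CPM in the JNJ libraries. These groups overlapped (log2 change of 0.06 with SE 0.10, edgeR adjusted p = 0.707). PSMB10 measured 1.47, 1.77 and 1.73 CPM in the DMSO libraries and 1.26, 1.40 and 1.53 CPM in the JNJ libraries. The groups overlapped, and its estimate was the least precise of the 3 (log2 change of -0.25 with SE 0.23, edgeR adjusted p = 0.431). The summed leukocyte markers were higher with the inhibitor, as given above, through CD14, while PTPRC and CD3E averaged at most 0.035 CPM in either group.

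**Figure D2:**
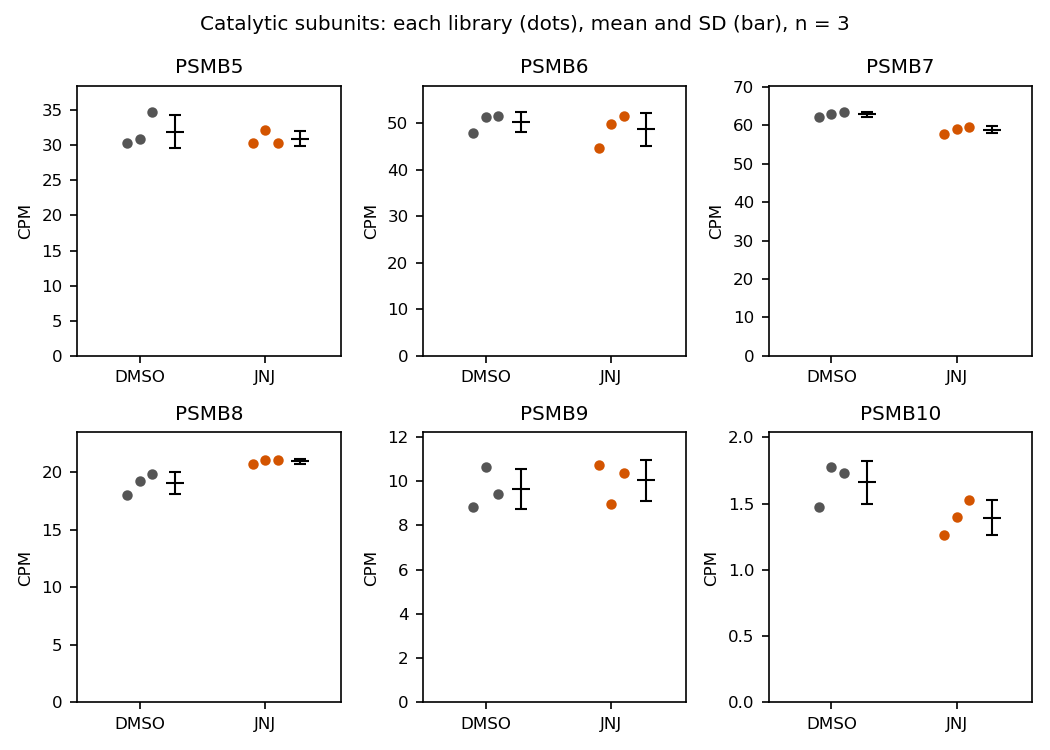
Level in CPM in each library for the constitutive catalytic subunits PSMB5, PSMB6 and PSMB7 (top) and the immune subunits PSMB8, PSMB9 and PSMB10 (bottom), DMSO beside JNJ, with mean and SD over 3 libraries. The groups overlap in 4 of the 6 panels; PSMB7 lies lower and PSMB8 higher with the inhibitor, and neither passed the test.

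Per length, the immune subunits were the minority form. Dividing each CPM by the length of the gene's principal transcript in kb, PSMB8 stood at 68.4%, 71.6% and 65.9% of PSMB5 with DMSO and at 78.5%, 75.5% and 79.7% with the inhibitor. The groups did not overlap, with means of 68.6 ± 2.88% and 77.9 ± 2.17%; no test was made on this ratio. PSMB9 was at 20.8 ± 1.42% of PSMB6 and then 22.6 ± 3.31%, and PSMB10 at 2.12 ± 0.19% of PSMB7 and then 1.91 ± 0.15%, with overlapping libraries for both. These ratios depend on the length used: per kb of all annotated exonic bases, PSMB8 was at 35.1 ± 1.48% of PSMB5 with DMSO and 39.9 ± 1.12% with the inhibitor. On that scale PSMB9 was at 9.01 ± 0.613% and 9.76 ± 1.43% of PSMB6, and PSMB10 at 2.54 ± 0.231% and 2.29 ± 0.182% of PSMB7. The PSMB10 ratio carries a further limit, since 60.0% of its coding bases are annotated in another gene as well, as set out below.

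The ring of ATPases at the base of the regulatory particle (PSMC1 to PSMC6) had 3 members that fell, 1 that rose and a median log2 fold change of -0.104. PSMC3 measured 89.4, 84.7 and 94.0 CPM in the DMSO libraries and 73.8, 75.2 and 81.1 CPM in the JNJ libraries. PSMC5 measured 147, 145 and 144 CPM in the DMSO libraries and 128, 139.5 and 126 CPM in the JNJ libraries. PSMC2 measured 64.6, 66.3 and 65.9 CPM in the DMSO libraries and 58.1, 59.0 and 61.1 CPM in the JNJ libraries. In all of these the JNJ libraries lay below the DMSO libraries, with log2 fold changes of -0.22 (SE 0.05, adjusted p = 0.00153), -0.15 (SE 0.05, adjusted p = 0.0170) and -0.14 (SE 0.05, adjusted p = 0.0237). The PSMC5 call was lost without DMSO replicate 1, DMSO replicate 2 or JNJ replicate 3 (adjusted p = 0.0569, 0.0509 and 0.116; range over the settings 0.00140 to 0.116). The PSMC2 call was lost without DMSO replicate 2 or JNJ replicate 1 and with library totals alone (adjusted p = 0.0765, 0.0622 and 0.0569; range 0.00203 to 0.0765). PSMC6 went the other way and measured 104, 106 and 107 CPM in the DMSO libraries and 119, 119.6 and 117 CPM in the JNJ libraries. Its groups did not overlap (log2 change of 0.17 with SE 0.04, edgeR adjusted p = 0.00389); with upper-quartile scaling adjusted p was 0.0509, the highest of its 14 settings. PSMC1 and PSMC4 did not pass the test, at -0.07 and 0.003. The ATPases, which form a ring of 6 different subunits, thus had members up and down within the same libraries.

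Among the 11 non-ATPase subunits of the regulatory particle 2 rose (18.2%) and 3 fell (27.3%), with a median log2 fold change of 0.029. The shares over all genes tested were 20.0% and 17.1%. PSMD6 (chr3:64010549-64024010, minus strand, GRCh38), a subunit of the lid, measured 40.5, 43.3 and 41.9 CPM in the DMSO libraries and 66.9, 73.0 and 74.1 CPM in the JNJ libraries. The lowest JNJ library was well above the highest DMSO library, and the mean rose from 41.9 ± 1.42 to 71.3 ± 3.89 CPM (log2 change of 0.77 with SE 0.05, edgeR adjusted p = 5.47e-11). PSMD11, another lid subunit, measured 101, 99.1 and 98.7 CPM in the DMSO libraries and 109.9, 119.7 and 110.1 CPM in the JNJ libraries. It rose by a smaller amount, with no overlap (log2 change of 0.18 with SE 0.05, edgeR adjusted p = 0.00337). PSMD12, also of the lid, lay all above DMSO and just missed the threshold (log2 fold change 0.12, adjusted p = 0.0542); it passed with library totals alone, with the filter at CPM above 1, and without JNJ replicate 2 (adjusted p = 0.0459, 0.0497 and 0.0124; range 0.0124 to 0.331).

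The non-ATPase subunits that fell were PSMD14, PSMD1 and PSMD3. PSMD14, the enzyme that cuts ubiquitin chains off substrates, measured 57.6, 57.8 and 62.1 CPM in the DMSO libraries and 47.8, 50.1 and 50.5 CPM in the JNJ libraries. PSMD1, a large scaffold of the base, measured 76.0, 80.4 and 79.9 CPM in the DMSO libraries and 69.2, 66.2 and 68.9 CPM in the JNJ libraries. Both fell with no overlap between groups, PSMD14 with a log2 fold change of -0.26 (SE 0.05, adjusted p = 0.000385) and PSMD1 with -0.21 (SE 0.05, adjusted p = 0.00134). PSMD3, a lid subunit, measured 124, 126 and 124 CPM in the DMSO libraries and 104, 110.1 and 122 CPM in the JNJ libraries. Its JNJ replicate 3 came close to the DMSO libraries (log2 change of -0.16 with SE 0.05, edgeR adjusted p = 0.0187), and the call was lost without JNJ replicate 1 (adjusted p = 0.104) and without DMSO replicate 2 (adjusted p = 0.0661; range 0.00194 to 0.104). PSMD2, the other large scaffold of the base and the most abundant member, was at 453 ± 8.14 CPM in control and 457 ± 9.01 CPM in treated libraries (log2 fold change 0.01, adjusted p = 0.846). The ubiquitin receptor PSMD4 and PSMD7, PSMD8 and PSMD13 had log2 fold changes between 0.02 and 0.06, and none passed the test.

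**Figure D3:**
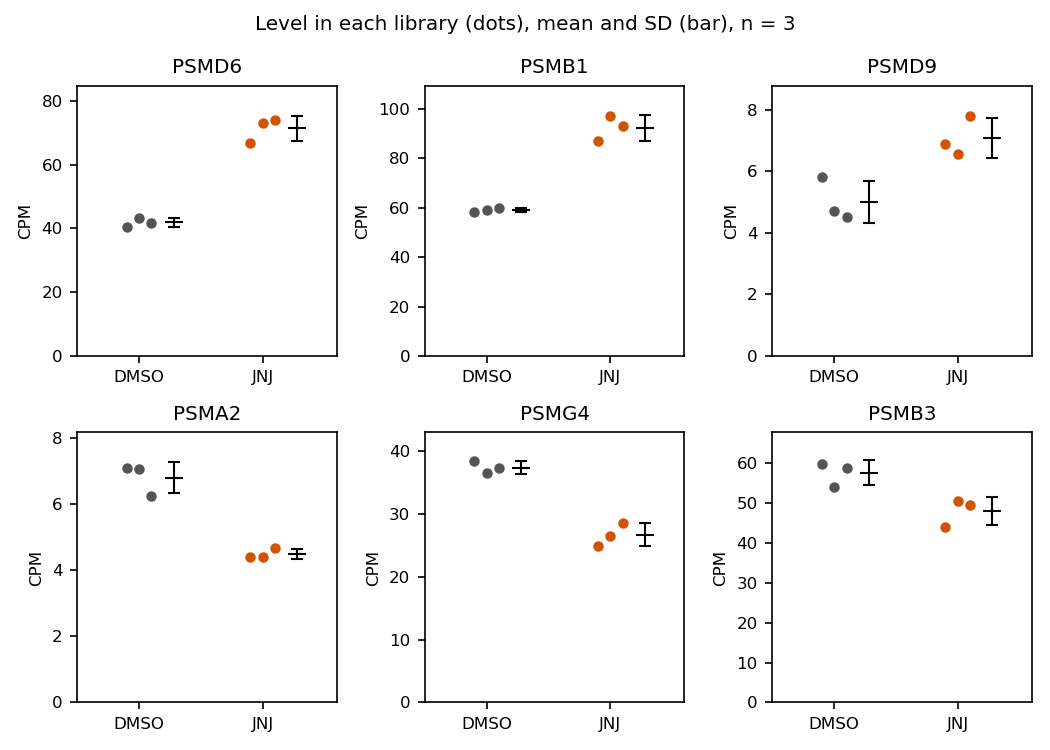
Level in CPM in each library for the proteasome genes with the largest changes, DMSO beside JNJ, with mean and SD over 3 libraries. For PSMD6 and PSMB1 every JNJ library lies above every DMSO library, and for PSMA2 and PSMG4 every JNJ library lies below.

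PSMD5, PSMD9 and PSMD10 are chaperones that help to build the base and are not part of the finished particle. The share that rose was 66.7% and none fell, beside 20.0% and 17.1% of all genes tested. PSMD9 (chr12:121888731-121918297, plus strand, GRCh38) measured 5.80, 4.71 and 4.53 CPM in the DMSO libraries and 6.87, 6.54 and 7.80 CPM in the JNJ libraries. PSMD5 measured 30.4, 32.6 and 29.1 CPM in the DMSO libraries and 34.8, 34.7 and 34.6 CPM in the JNJ libraries. Both rose with no overlap between groups, PSMD9 by 1.41-fold (log2 change of 0.49 with SE 0.13, edgeR adjusted p = 0.00456) and PSMD5 by 1.13-fold (log2 change of 0.18 with SE 0.06, edgeR adjusted p = 0.0237). The PSMD5 call was lost in 6 of 14 settings, among them without DMSO replicate 1, DMSO replicate 3 or JNJ replicate 3 (adjusted p = 0.0845, 0.147 and 0.058; range 0.0200 to 0.147). PSMD10, also known as gankyrin, did not pass the test (log2 fold change -0.15, adjusted p = 0.124); it passed with upper-quartile scaling and without DMSO replicate 1 (adjusted p = 0.0296 and 0.0371; range 0.0296 to 0.343).

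The chaperones of the core, PSMG1 to PSMG4, guide the alpha ring and early beta subunits into place. PSMG4 (chr6:3231403-3303373, plus strand, GRCh38) measured 38.4, 36.4 and 37.3 CPM in the DMSO libraries and 24.9, 26.6 and 28.6 CPM in the JNJ libraries. All JNJ libraries lay below all DMSO libraries, and the mean fell from 37.4 ± 0.965 to 26.7 ± 1.84 CPM (log2 change of -0.49 with SE 0.06, edgeR adjusted p = 1.11e-06). PSMG3, with which PSMG4 forms a dimer, had a log2 fold change of 0.02 (adjusted p = 0.852), and PSMG1 and PSMG2, which form the other dimer, had -0.01 and 0.006 (adjusted p = 0.933 and 0.965). The summed level of the 4 genes was 87.9% of the DMSO level, and PSMG4 was the only one of them to pass the test.

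The activators bind the ends of the core in place of the regulatory particle. PSME1 and PSME2 encode the interferon-inducible PA28 alpha and beta. PSME1 measured 46.0, 45.2 and 47.7 CPM in the DMSO libraries and 44.9, 48.2 and 47.4 CPM in the JNJ libraries. PSME2 measured 41.3, 43.4 and 41.8 CPM in the DMSO libraries and 42.2, 45.1 and 45.7 CPM in the JNJ libraries. The groups overlapped for both, with log2 fold changes of 0.02 (SE 0.05, adjusted p = 0.832) and 0.07 (SE 0.05, adjusted p = 0.312). PSME3, the nuclear PA28 gamma, measured 134, 129 and 139 CPM in the DMSO libraries and 128, 116 and 126 CPM in the JNJ libraries. Its JNJ libraries all lay below the DMSO libraries and the difference just missed the threshold (log2 change of -0.12 with SE 0.05, edgeR adjusted p = 0.0566). It passed in 6 of 14 settings, among them without DMSO replicate 2 and without JNJ replicate 1 (adjusted p = 0.0449 and 0.0268; range 0.00446 to 0.233). PSME4, the activator PA200, measured 71.7, 72.8 and 65.9 CPM in the DMSO libraries and 71.2, 71.8 and 69.2 CPM in the JNJ libraries. These groups overlapped (log2 change of 0.01 with SE 0.05, edgeR adjusted p = 0.867). The inhibitor PSMF1 lay all above DMSO without passing the test (log2 fold change 0.09, adjusted p = 0.125).

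Divided by the length of the principal transcript, the members spanned a wide range in DMSO libraries. PSMD2 came first with 131 CPM per kb, followed by PSMB4 with 113, PSMA3 with 103 and PSMA7 with 100.2 CPM per kb. PSMB1 went from rank 9 to rank 3 with the inhibitor (63.6 to 99.4 CPM per kb), and PSMD6 from rank 22 to rank 14 (29.3 to 49.9 CPM per kb). PSMG4 went from rank 17 to rank 20. The order depends on the length used: over all annotated exonic bases PSMD2 still came first, but in DMSO libraries PSMB1 was at rank 13, PSMD6 at 39 and PSMG4 at 41.

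**Figure D4:**
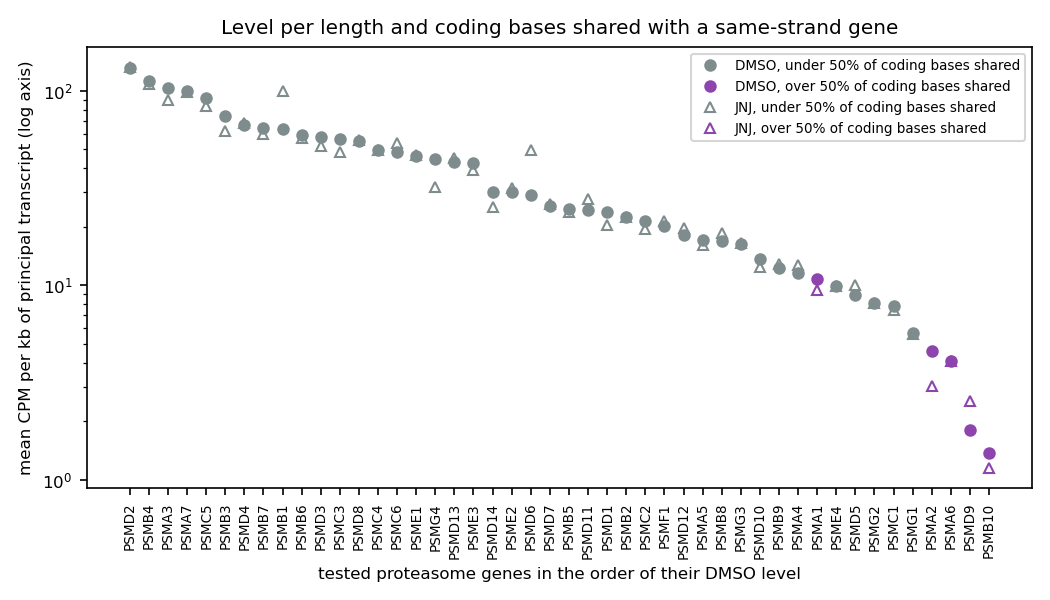
Level per length (CPM per kb of principal transcript, log axis) of each detected proteasome gene, mean of 3 DMSO libraries beside mean of 3 JNJ libraries, ordered by the DMSO level; purple marks the 5 genes with over 50% of their coding bases shared with another gene. PSMD2 lies at the top with 131 CPM per kb, and PSMA2, PSMA6, PSMD9 and PSMB10 lie at the bottom.

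The lowest tested members per kb were PSMA2, PSMA6, PSMD9 and PSMB10, with 4.58, 4.06, 1.80 and 1.36 CPM per kb in DMSO libraries. All of these share coding bases with another gene annotated on the same strand: 100% of the coding bases of PSMA2, 89.7% of PSMA6, 68.3% of PSMD9 and 60.0% of PSMB10. PSMA1 shares 91.0% and came at rank 37 of 46. No other member shares more than 0.1%. No source used here says how reads in bases of more than 1 gene were counted, so the levels of these 5 genes, and the falls and rises of PSMA2 and PSMD9, rest on an unknown share of their reads. Over all 6 libraries together, the genes that share these bases held few counts. They had 6 at PSMA2, 24 at PSMA6, 11 at PSMD9, 182 at PSMB10 and 0 at PSMA1. Whether reads in shared bases were left out of both genes was not tested. Without these 5 genes 6 members rose and 9 fell, with a median log2 fold change of 0.003.

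Genes on the opposite strand overlapped several members, and no source used here gives the strand setting. SLC22A23 overlaps 13.3% of the exonic bases of PSMG4 and rose from 18.1 ± 1.30 to 36.8 ± 4.01 CPM (log2 fold change 1.03, adjusted p = 1.50e-10), opposite to the fall of PSMG4. NRDE2 overlaps 75.8% of PSMC1, and both went uncalled with log2 fold changes of -0.06 and -0.07. A processed transcript, ENSG00000259972, overlaps 30.7% of PSMD7 and fell (log2 fold change -0.54, adjusted p = 8.17e-06), while PSMD7 had 0.03. PSMB8-AS1 overlaps 20.6% of PSMB8 and FTSJ3 overlaps 19.5% of PSMC5, and neither passed the test (adjusted p = 0.344 and 0.158). On the same strand, CFAP251 shares 4.97% of the exonic bases of PSMD9 and fell (log2 fold change -0.25, adjusted p = 0.034) while PSMD9 rose. The antisense genes at PSMD6 cover 4.83% and 3.86% of its exonic bases, and the one with enough counts to be tested, PSMD6-AS2, did not pass the test (adjusted p = 0.611). The part of these overlaps in the members' values was not tested.

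Several members lie head to head with a neighbour, their start sites within 1000 bases on opposite strands. The start of a gene was taken as its outermost annotated 5′ end, and single transcripts can start elsewhere. PSMB1 starts 961 bases from TBP, the TATA-binding protein, which fell from 14.96 to 11.93 CPM (log2 fold change -0.32, adjusted p = 0.0033) while PSMB1 rose. PSMA2 starts 23 bases from MRPL32, a mitochondrial ribosomal protein gene, which went from 84.4 to 77.4 CPM without passing the test (log2 fold change -0.12, adjusted p = 0.0631). PSMC2 fell while DNAJC2, 619 bases away, rose (log2 fold change 0.15, adjusted p = 0.0331). PSMG2 was at 0.006 while SPIRE1, 91 bases away, fell (log2 fold change -0.26, adjusted p = 1.28e-04). PSMA7 was at -0.02 while SS18L1, 355 bases away, rose (log2 fold change 0.22, adjusted p = 0.00164). The outermost starts of PSMB8 and PSMB9 were 567 bases apart, and neither gene passed the test. The annotated span of PSMB9 (chr6:32844136-32859585) also contains TAP1, on the minus strand (chr6:32845209-32853978). Distances from other starts of PSMB9 were not measured. Among these pairs, both genes passed the test at PSMB1 and PSMC2, in opposite directions. Of all genes tested, 37.1% passed in either direction, and the pairs were not tested against that share.

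Promoter sequences, 250 bases before to 50 after a transcript start, were taken from RefSeq (GRCh38.p14), where 42 of the 48 members had an entry, with 51 promoters in all. The members with no entry were PSMA7, PSMB1, PSMB6, PSMB7, PSMD4 and PSMG3. The promoters of PSMD6, PSMA2 and PSMG4 are shown because, among members with an entry, PSMD6 rose most and the other two fell most, each from 250 bases before to 30 after the start, 5′ to 3′ on the gene's strand. Capitals mark the motifs searched on both strands: TGACNNNGC, the core of the antioxidant element bound by NRF factors; CCAAT, bound by NF-Y; GAAA followed by any 2 bases and another GAAA, an element of interferon-regulated factors; and GGGA followed by any 4 bases and CC, a kappaB-like site. In PSMD6 (chr3:64023465-64023744, minus strand) the capitals are a CCAAT on the reverse strand, in PSMA2 (chr7:42932145-42932424, minus strand) a CCAAT, and in PSMG4 (chr6:3258697-3258976, plus strand) kappaB-like matches and an interferon element.
PSMD6: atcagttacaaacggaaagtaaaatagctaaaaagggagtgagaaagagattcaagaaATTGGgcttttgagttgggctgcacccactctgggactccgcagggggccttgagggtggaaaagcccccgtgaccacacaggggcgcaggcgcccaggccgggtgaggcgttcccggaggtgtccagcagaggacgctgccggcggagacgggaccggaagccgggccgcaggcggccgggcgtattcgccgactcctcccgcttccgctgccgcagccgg
PSMA2: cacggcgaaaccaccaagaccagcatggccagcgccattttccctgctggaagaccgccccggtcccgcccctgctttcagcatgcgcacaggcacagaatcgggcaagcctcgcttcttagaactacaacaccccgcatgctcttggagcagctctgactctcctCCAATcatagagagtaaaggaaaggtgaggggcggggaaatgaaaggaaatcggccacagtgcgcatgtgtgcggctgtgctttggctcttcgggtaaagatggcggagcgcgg
PSMG4: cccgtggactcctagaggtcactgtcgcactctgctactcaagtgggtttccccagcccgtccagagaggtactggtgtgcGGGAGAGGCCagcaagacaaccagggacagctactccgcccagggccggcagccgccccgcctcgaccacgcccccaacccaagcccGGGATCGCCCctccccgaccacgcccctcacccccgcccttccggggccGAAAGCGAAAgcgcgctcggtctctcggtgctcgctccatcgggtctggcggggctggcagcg

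The promoters of PSMB8, PSME1 and PSME2 are shown because these 3 interferon-inducible genes each hold an interferon element, on the reverse strand in PSMB8 and PSME1, and did not pass the test. PSMB10, which is interferon-inducible too and did not pass the test, also holds the element and is not shown. The inducible PSMB9 had a promoter entry with the antioxidant core and CCAAT but no match to the interferon element. PSMB8 has another start in RefSeq whose window held none of the motifs; the window shown is chr6:32844018-32844297, minus strand. PSME1 (chr14:24135944-24136223, plus strand) and PSME2 (chr14:24146581-24146860, minus strand) also hold the antioxidant core, and PSME2 a kappaB-like match.
PSMB8: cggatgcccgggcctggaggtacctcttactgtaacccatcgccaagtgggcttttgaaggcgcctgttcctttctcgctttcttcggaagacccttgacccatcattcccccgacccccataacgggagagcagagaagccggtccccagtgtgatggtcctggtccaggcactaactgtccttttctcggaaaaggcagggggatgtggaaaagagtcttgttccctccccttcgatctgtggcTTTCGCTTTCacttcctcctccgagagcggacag
PSME1: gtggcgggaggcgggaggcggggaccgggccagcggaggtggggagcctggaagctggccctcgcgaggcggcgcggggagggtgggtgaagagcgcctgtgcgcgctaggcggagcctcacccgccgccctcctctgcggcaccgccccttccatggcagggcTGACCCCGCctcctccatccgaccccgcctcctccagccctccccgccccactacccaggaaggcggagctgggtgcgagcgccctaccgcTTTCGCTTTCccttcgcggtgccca
PSME2: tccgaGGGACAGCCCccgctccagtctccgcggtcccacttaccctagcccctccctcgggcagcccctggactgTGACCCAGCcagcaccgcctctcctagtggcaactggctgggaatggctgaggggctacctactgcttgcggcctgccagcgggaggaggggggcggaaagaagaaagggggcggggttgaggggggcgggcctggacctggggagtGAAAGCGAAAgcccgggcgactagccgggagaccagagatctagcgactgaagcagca

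Over the 51 member promoters, TGACNNNGC was in 15, each of a different member (29.4%), beside 13.3% of all 35116 promoters of the same length. CCAAT was in 20 (39.2%), beside 34.6%. The interferon element was in 7 (13.7%), beside 3.6%, at PSMA4, PSMB4, PSMB8, PSMB10, PSME1, PSME2 and PSMG4. The kappaB-like motif was in 12 (23.5%), beside 25.6%. In no member promoter did matches of different motifs overlap. Of the 15 tested members with the antioxidant core 3 rose and 4 fell, and of the 19 tested with CCAAT 2 rose and 8 fell. Of the 7 with the interferon element PSMA4 rose and PSMG4 fell, and of the 11 tested with the kappaB-like motif 2 rose and 3 fell. Over all genes tested 20.0% rose and 17.1% fell, and the counts by motif were not tested against those shares. A match is a description of these letters and not evidence of binding.

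The regulators of proteasome transcription, a list of 15 genes, had 5 that rose (33.3%) and 3 that fell (20.0%), with a median log2 fold change of 0.041, beside 20.0% and 17.1% of all genes tested and their median of 0.001. NFE2L1, which encodes NRF1, fell from 569 ± 17.1 to 511 ± 2.02 CPM (log2 change of -0.15 with SE 0.04, edgeR adjusted p = 0.00704). The enzymes that turn NRF1 from its precursor into an active factor moved in different directions: NGLY1, which removes its sugar chains, rose from 23.1 ± 0.895 to 33.5 ± 0.726 CPM (log2 change of 0.53 with SE 0.06, edgeR adjusted p = 2.39e-07), DDI2, the protease that cuts it, rose from 71.4 ± 1.80 to 98.6 ± 1.98 CPM (log2 change of 0.47 with SE 0.05, edgeR adjusted p = 2.36e-08), and VCP, which extracts it from the membrane, fell from 219 ± 2.43 to 176 ± 2.83 CPM (log2 change of -0.32 with SE 0.04, edgeR adjusted p = 2.19e-06). All 3 JNJ libraries lay outside the DMSO range for each of these genes. NFYA, a subunit of NF-Y, fell from 64.9 ± 3.26 to 57.2 ± 2.02 CPM (log2 fold change -0.18, adjusted p = 0.00846). NFE2L2, encoding NRF2, was at 84.6 ± 0.245 CPM in control and 83.2 ± 5.34 CPM in treated libraries (log2 fold change -0.02, adjusted p = 0.768). The related NFE2L3 rose by little (log2 fold change 0.12, adjusted p = 0.0364) and lost its call in 10 of 14 settings, including without any 1 of the 6 libraries (adjusted p between 0.0506 and 0.195; range over all settings 0.0317 to 0.293).

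On the interferon side of the same list, STAT2, a transducer of type I interferon signals, rose from 152 ± 4.36 to 209 ± 1.43 CPM (log2 change of 0.46 with SE 0.04, edgeR adjusted p = 8.41e-09). NLRC5, the activator of MHC class I genes, rose from 14.7 ± 0.383 to 20.6 ± 0.597 CPM (log2 fold change 0.49, adjusted p = 1.02e-05). IRF1 and IRF2 did not pass the test, with log2 fold changes of -0.06 and 0.12. The immune subunits PSMB8, PSMB9 and PSMB10 and both PA28 genes, described above, did not pass it either.

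Among 8 genes that carry proteasome products onward to MHC class I, 2 rose (25%) and 3 fell (37.5%), with a median log2 fold change of 0.033. The shares over all genes tested were 20.0% and 17.1%. TAP1, one subunit of the peptide transporter, rose from 38.7 ± 2.63 to 51.7 ± 2.17 CPM (log2 change of 0.42 with SE 0.06, edgeR adjusted p = 3.86e-06), and TAP2, the other subunit, fell from 77.0 ± 6.64 to 63.4 ± 0.733 CPM (log2 change of -0.28 with SE 0.06, edgeR adjusted p = 0.000315). The subunits of the transporter thus moved in opposite directions. The chaperones CALR and PDIA3 of the loading complex fell, with log2 fold changes of -0.31 and -0.23 (adjusted p = 1.51e-05 and 0.000253).

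**Figure D5:**
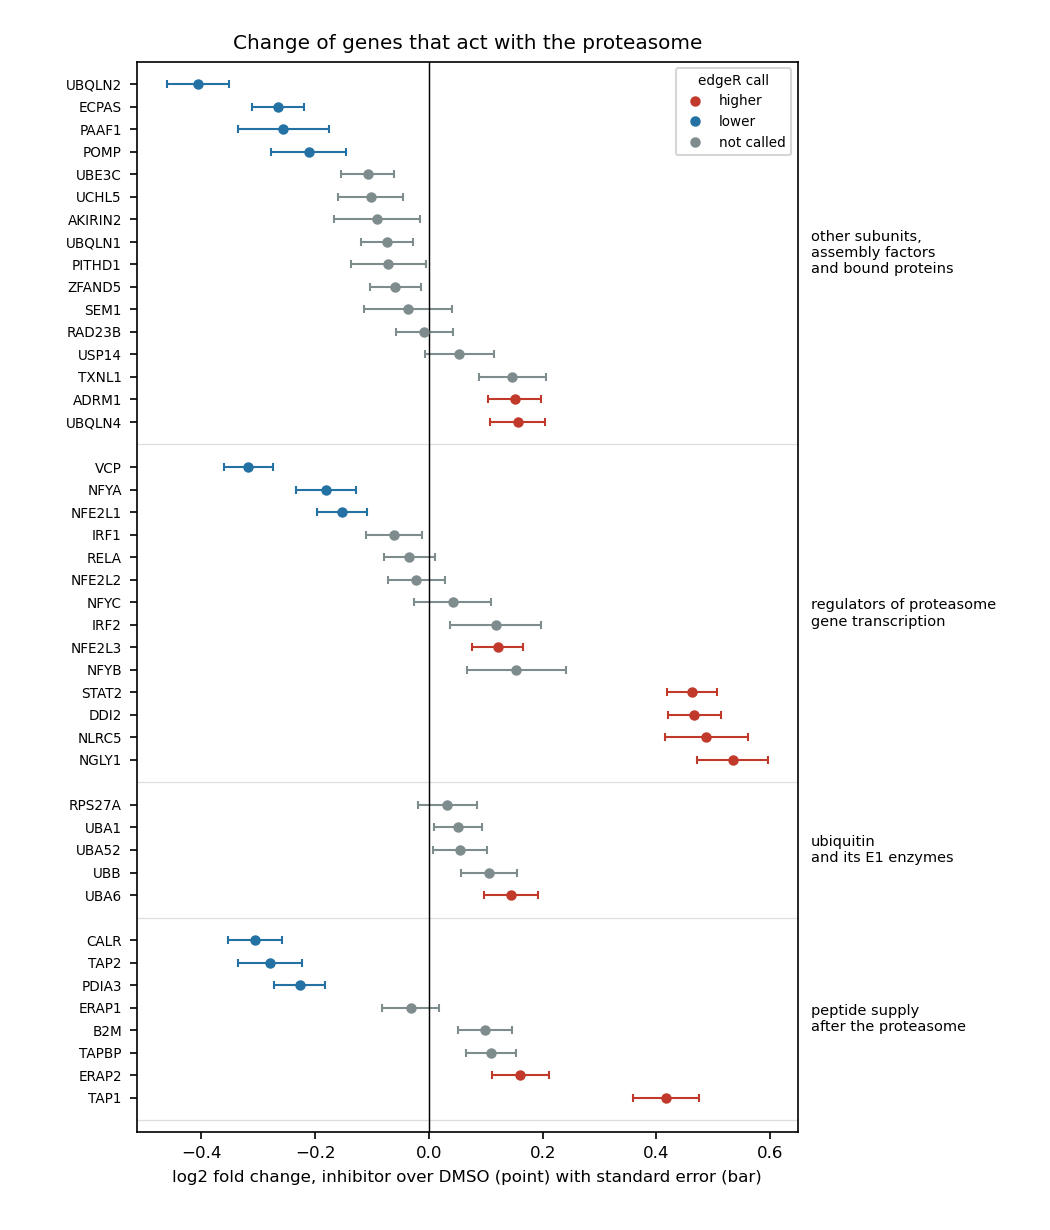
Log2 fold change, JNJ over DMSO, with standard error, of genes outside the proteasome symbol families, from 4 lists; red marks genes that rose, blue genes that fell and grey those that did not pass edgeR's test. NGLY1, DDI2, NLRC5, STAT2 and TAP1 lie farthest to the right and UBQLN2 and VCP farthest to the left.

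The list of other subunits, assembly factors and proteins bound to the proteasome held 17 genes, of which 3 rose (17.6%) and 4 fell (23.5%). Beside this, 20.0% and 17.1% of all genes tested did so. The median log2 fold change of the list was -0.072. UBQLN2, a shuttle that brings ubiquitinated proteins to the proteasome, fell from 48.0 ± 2.0 to 36.2 ± 0.764 CPM (log2 change of -0.41 with SE 0.06, edgeR adjusted p = 2.53e-06). ECPAS, a scaffold that binds the assembled particle, fell from 149 ± 4.70 to 124 ± 3.45 CPM (log2 change of -0.26 with SE 0.05, edgeR adjusted p = 5.64e-05). POMP, the maturation protein of the core, fell from 31.1 ± 0.181 to 26.9 ± 2.15 CPM (log2 change of -0.21 with SE 0.07, edgeR adjusted p = 0.0129), a call that was lost without JNJ replicate 1 (adjusted p = 0.0844, the highest of its settings; the lowest was 0.00224). ADRM1, a ubiquitin receptor of the base, rose from 87.2 ± 2.34 to 96.8 ± 2.13 CPM (log2 change of 0.15 with SE 0.05, edgeR adjusted p = 0.0127), and lost its call with upper-quartile scaling and without DMSO replicate 2 or 3 (adjusted p = 0.127, 0.0562 and 0.0844; the lowest was 0.00990). SEM1, a small lid subunit whose symbol falls outside the families, was at -0.04 (adjusted p = 0.749).

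Ubiquitin and its activating enzymes formed a list of 6 genes, of which 1 rose (16.7%) and none fell, with a median log2 fold change of 0.053. Of all genes tested 20.0% rose and 17.1% fell. UBA6, one of the activating enzymes, rose from 91.9 ± 1.45 to 102 ± 4.50 CPM (log2 change of 0.14 with SE 0.05, edgeR adjusted p = 0.0194). Its call was lost in 6 of 14 settings, including without DMSO replicate 1, 2 or 3 and without JNJ replicate 1 (adjusted p = 0.0774, 0.0572, 0.0808 and 0.0867; range 0.0112 to 0.159). UBB and UBA1 had log2 fold changes of 0.11 and 0.05 without passing the test; without JNJ replicate 1 UBB passed it (adjusted p = 0.0131, the lowest of its settings; the highest was 0.498).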

How the data were processed

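The authors deposited raw read counts per gene for 6 libraries in 1 table. The submitters' processing notes name edgeR, limma, featureCounts 1.6.0, STAR 2.7.9a and FastQC 0.11.8, and the mouse build GRCm39, while the deposited rows carry human Ensembl identifiers. The annotation, strand setting and treatment of reads shared by genes could not be learned from the sources used here. Of 60649 rows, 44 repeated an identifier with 0 counts and were left out.

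Groups came from the labels' treatment. Genes passing edgeR's filterByExpr (17371) were scaled by TMM and tested with the quasi-likelihood test of edgeR 4.0.16 in R 4.3.3 (group as the only term, two-sided, Benjamini-Hochberg over all genes tested, threshold 0.05); SE is the size of the log2 fold change divided by the square root of F. The fit was tested on simulated counts of independent libraries with few changed genes. That cannot show how it performs if the present libraries are technical replicates. Replicate libraries differed beyond counting noise, with chi-square per degree of freedom between 2.71 and 9.24. Gene positions, types and lengths came from GENCODE 29 (GRCh38). CPM per kb used the principal transcript or all exonic bases.

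The members and lists were chosen with earlier results of these data known. Values in every library are given for the catalytic, immune and activator genes and for the 16 other members past the threshold with the smallest p; of each list the 4 genes with the smallest p and a few preset ones are named, except some that are counted but not reported here, and IRF1, IRF2, NFYA and the neighbouring or overlapping genes were named after their values were seen. NLRC5 and PSME3IP1 were also named outside these rules. Alternatives were RLE, upper-quartile and no scaling, no filter, CPM above 1 in 3 libraries, a replicate block, DESeq2 1.42.0, limma-voom (limma 3.58.1) and leaving out each library. Leaving out genes that share coding bases, and the length of the principal transcript, were chosen after seeing the data.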

Additional observations from a re-analysis of the deposited data

How the results depend on the processing

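With upper-quartile scaling, which shifted all genes by -0.0586 in log2, the number of members that rose went from 7 to 4 and the median log2 fold change of the tested members from -0.002 to -0.06; 10 members fell with TMM and 15 with this scaling, and the cause was not tested. Over all genes tested this scaling gave 2800 higher and 4099 lower, beside 3478 and 2970 with TMM. Under the other scalings, filters and tools, 5 to 8 members rose and 9 to 11 fell, with medians between -0.013 and 0.01. Leaving out 1 library gave 5 to 8 higher, 8 to 10 lower and medians between -0.032 and 0.01. Of the 17 members called, 11 kept their call in all 14 alternatives, 6 lost it in some, and none reversed; 6 members without a call gained one in some, and 16 without a call changed sign in some. Of 21 list genes called, 14 kept their call in all. Including PSMC3IP and PSME3IP1 as members gave 8 higher and 10 lower. Blocking on replicate number gave 6 higher, 10 lower and a median of -0.001. Libraries of the same number did not deviate together over all genes tested (correlations -0.018, -0.014 and 0.002). Genes with few counts weigh as much as others in this check, so it cannot exclude a pairing by number. Low counts limit PSMB10 above all, with 31 to 54 a library, and 60.0% of its coding bases are annotated in another gene as well.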

Other observations

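Genes next to the proteasome families in name or sequence were few among those detected. Of 44 pseudogenes annotated to members, 3 had enough counts to be tested and none passed edgeR's test. Of 7 antisense and divergent genes of members, 4 were tested and PSMG3-AS1 rose, from 3.41 ± 0.49 to 4.61 ± 0.77 CPM (log2 fold change 0.43, adjusted p = 0.0396), beside 0.02 for PSMG3 itself. PSME3IP1, a partner of the activator PSME3, rose from 61.4 ± 2.29 to 75.4 ± 2.71 CPM (log2 fold change 0.30, adjusted p = 4.96e-05), and PSMC3IP, a recombination factor named for its binding to PSMC3, was at -0.02 (adjusted p = 0.931).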
